A study of Mus musculus with 6 samples.

Results

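Papillary thyroid carcinoma is the most common thyroid malignancy, and a handful of its products are used or studied as markers that set it apart from normal follicular tissue. The genes described here are 7 of them, taken by symbol from the deposited count table: *Lgals3*, *Cited1*, *Dpp4*, *Met*, *Hmga2*, *Pros1* and *Lcn2*. All 7 were among the 25239 genes of the table, and all 7 passed the filter on low counts that left 15256 genes for testing. They encode proteins of unlike kinds. Galectin 3 (*Lgals3*) is a sugar-binding lectin, lipocalin 2 (*Lcn2*) a secreted carrier of iron-loaded siderophores, Cited1 a transcriptional co-activator, Hmga2 a chromatin protein of embryonic tissue, Dpp4 a cell-surface peptidase, Met the receptor of hepatocyte growth factor, and protein S (*Pros1*) a plasma anticoagulant that also binds the TAM receptors Tyro3, Axl and Mertk. In human papillary carcinoma these genes are known to be higher than in normal thyroid, and most carcinomas of this kind carry a mutation that keeps the MAPK pathway (RAF, MEK and ERK) switched on.

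The RNA came from follicle-enriched organoids grown from one recombinant mouse embryonic stem cell line. All 6 libraries share its genotype: doxycycline-inducible *Nkx2-1* and *Pax8*, which were switched on for 5 days at 1 µg/ml to drive thyroid fate, and a Braf V637E-ERT2 fusion under a bovine *Tg* promoter, which becomes active only with 4-hydroxytamoxifen. Every group was matured for 2 weeks with 8-Br-cAMP and collected at day 31. The cAMP group (2 libraries) received vehicle and no 4-hydroxytamoxifen, the 4OHT group (2 libraries) received it at 1 µM for 5 days, and the PD+LY group (2 libraries) received it at 1 µM and, for the last 3 days, also PD0325901 (250 nM), which inhibits MEK, with LY204002 (5 µM), which inhibits PI3K. The inhibitor organoids had 4-hydroxytamoxifen both before and during the inhibitors, so the length of exposure to it and the inhibitors cannot be told apart in the comparison with 4OHT. There was no group with a single inhibitor, so the parts of PD0325901 and LY204002 cannot be told apart either. No library came from a line without the oncogene, so in 4OHT against cAMP 4-hydroxytamoxifen itself and the active oncogene cannot be told apart. The study did treat a line with a reporter in place of the oncogene. It reports that 4-hydroxytamoxifen did not impair thyroid differentiation markers or follicles there. Each library pooled at least 3 wells, and in the study's reporter line the bovine promoter did not mark every *Tg*-positive cell, so a library may hold cells with and without the oncogene.

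Library totals ran from 14898409 to 20637959 counts. A library's 3-count floor lay between 0.146 and 0.200 CPM (counts per 1000000 counts of the library), and the lowest count of any of the 7 genes was 175. Counts therefore limit these values less than having 2 libraries in each group. All 12 markers of thyroid follicular cells were present in every library, with summed levels of 1663 and 1114 CPM in cAMP, 576 and 769 in 4OHT and 2007 and 1003 in PD+LY. All 10 pluripotency markers were present too, at 3729 to 4608 CPM in sum. Fewer cells of one type and less RNA per cell cannot be told apart in bulk libraries such as these.

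In the text below a gene is said to have risen or fallen only where edgeR's quasi-likelihood test gave a Benjamini-Hochberg adjusted p under 0.05 over all 15256 genes. A log2 fold change is given with its standard error (SE). The 3 comparisons share libraries, so their values are set side by side and not counted as separate evidence.

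In 4OHT against cAMP 1 of the 7 marker genes rose, *Lgals3*. In PD+LY against 4OHT 5 of 7 fell, *Lgals3*, *Lcn2*, *Cited1*, *Dpp4* and *Met*. The background was 4.04% of all tested genes higher in 4OHT than in cAMP, and 12.1% lower in PD+LY than in 4OHT. With a 2-fold change also required, the 4OHT count stayed at 1 of 7 (background 1.17%) and the PD+LY count was 3 of 7, *Lgals3*, *Lcn2* and *Cited1* (background 4.90%). Against the cAMP group the same treatment left 5 of 7 lower (background 13.7%), 2 of them by at least 2-fold, *Cited1* and *Lcn2* (background 6.24%). No marker gene fell in 4OHT (background 4.35%), and none rose in PD+LY against 4OHT (background 10.7%) or against cAMP (background 12.1%). Those counts of 0 by edgeR were also 0 at an unadjusted p under 0.05 and by DESeq2. The median log2 fold change over the 7 genes was 0.25 in 4OHT. For PD+LY it was -0.75 relative to 4OHT and -0.71 relative to cAMP, beside medians of -0.0021, 0.0077 and 0.0049 over all tested genes. The background shares at adjusted p under 0.05 apply equally to the counts of list genes and cell type markers below.

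**Figure D1:**
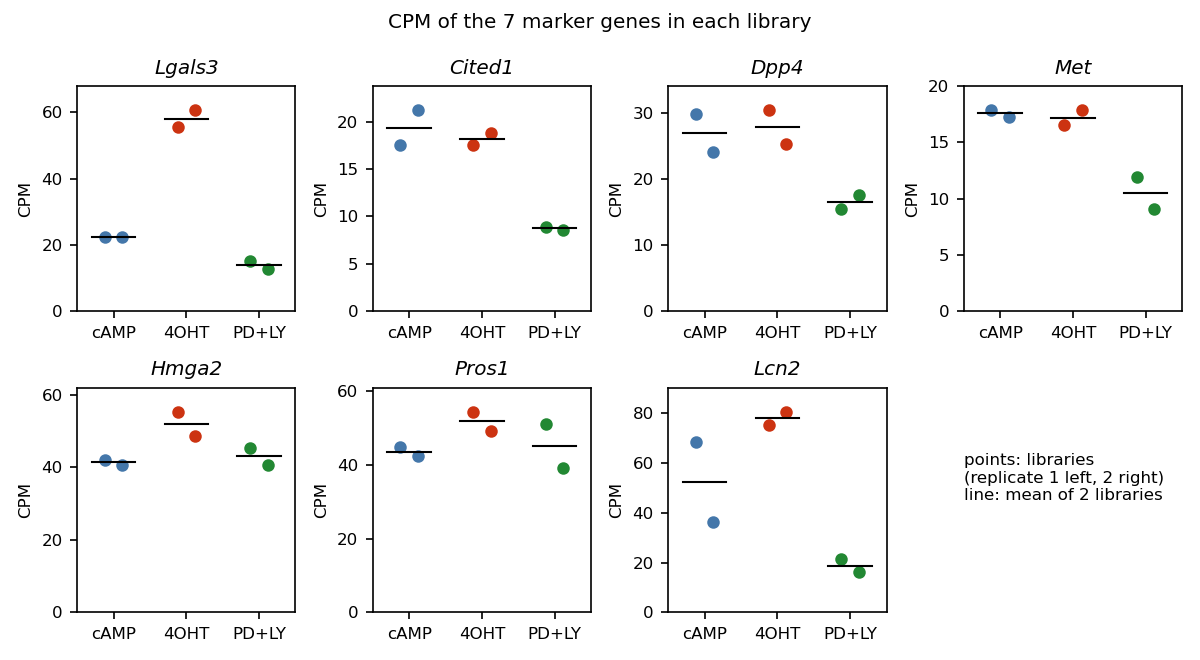
CPM, counts per 1000000 (vertical axes, linear and starting at 0), of the 7 marker genes in the 2 cAMP, 2 4OHT and 2 PD+LY libraries, with a point for each library and a line at the mean. Lgals3 stands apart by its 4OHT libraries at 55.6 and 60.7 CPM, whereas Cited1, Dpp4 and Met overlap between cAMP and 4OHT and are lower in PD+LY.

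*Lgals3* lies on chromosome 14 (chr14:47367751-47386160, plus strand, GRCm38). It measured 22.3 and 22.2 CPM in cAMP, 55.6 and 60.7 in 4OHT and 15.2 and 12.7 in PD+LY. The 3 groups did not overlap, with 4OHT highest and PD+LY lowest. The rise in 4OHT was 2.61-fold (log2 fold change 1.38, SE 0.13, adjusted p = 0.000117). The fall with the inhibitors was 4.17-fold (log2 fold change -2.06, SE 0.14, adjusted p = 3.65e-06). The PD+LY libraries also ended below the cAMP libraries, which had no 4-hydroxytamoxifen (log2 fold change -0.68, SE 0.14, adjusted p = 0.004). All 3 calls stood in each of the 12 alternative analyses.

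Galectin 3 is also a product of macrophages, so their markers were read beside it. Of 12 macrophage markers, 5 (*Ptprc*, *Adgre1*, *C1qa*, *C1qb* and *C1qc*) had no count in any library, and the list summed to 69.9 and 70.1 CPM in cAMP, 59.8 and 68.0 in 4OHT and 33.4 and 34.9 in PD+LY. *Cd68* made up most of that sum, with mean levels of 64.9 (cAMP), 58.8 (4OHT) and 31.7 CPM (PD+LY). Of the 4 macrophage markers tested, edgeR called 0 in 4OHT (0 also at an unadjusted p under 0.05 and by DESeq2) and 2 lower in PD+LY against 4OHT. The part of such cells in the course of *Lgals3* was not tested. Among 9 other galectin and *Mgat5* genes, 8 were tested. *Lgals1*, another galectin, also rose and then fell. It measured 81.0 and 89.2 CPM in cAMP, 115 and 111 in 4OHT and 77.6 and 73.8 in PD+LY, a rise of 0.41 on the log2 scale (SE 0.10, adjusted p = 0.0257) and then a log2 fold change of -0.58 (SE 0.10, adjusted p = 0.0017). *Lgals9* fell with the inhibitors (log2 fold change -0.96, SE 0.15, adjusted p = 0.00114) without having risen in 4OHT (0.25, adjusted p = 0.345). The gene of the galectin 3 ligand *Lgals3bp* and *Mgat5*, whose enzyme builds the branched glycans that galectin 3 binds, passed the test in no comparison.

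*Lcn2* lies on chromosome 2 (chr2:32384633-32388252, minus strand). It measured 68.4 and 36.4 CPM in cAMP, 75.3 and 80.5 in 4OHT and 21.2 and 16.0 in PD+LY. Both 4OHT libraries were higher than both cAMP libraries, but the 2 cAMP libraries lay far apart, and the increase was not called (log2 fold change 0.58, SE 0.23, adjusted p = 0.144). It rested on a single library: without cAMP replicate 1 the log2 fold change was 1.10 (adjusted p = 0.00361), and without cAMP replicate 2 it was 0.19 (adjusted p = 0.592). The fall with the inhibitors was 4.18-fold (log2 fold change -2.06, SE 0.24, adjusted p = 0.000166), a log2 fold change equal to that of *Lgals3* to 2 decimals, and held in all 12 alternatives. Against cAMP it was -1.49 (SE 0.24, adjusted p = 0.00088), and -0.97 without cAMP replicate 1. Lipocalin 2 is stored by neutrophils. Their 12 markers summed to 31.1 and 20.3 CPM in cAMP, 28.8 and 49.1 in 4OHT and 11.2 and 21.8 in PD+LY, with *Elane*, *Ngp* and *Fcnb* at 0 throughout. In each library 6 to 8 of the 12 had no count, and only 1 reached the 3-count floor in every library, so few genes carry these sums. The part of such cells in the course of *Lcn2* was not tested.

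The partners of lipocalin 2 moved in unlike directions. *Mmp9*, the protease whose protein lipocalin 2 binds and shields from degradation, measured 13.6 and 9.80 CPM in cAMP, 17.3 and 22.2 in 4OHT and 4.23 and 4.09 in PD+LY. It rose in 4OHT (log2 fold change 0.76, SE 0.20, adjusted p = 0.037) and fell with the inhibitors (-2.25, SE 0.22, adjusted p = 4.53e-05). *Lrp2* encodes megalin, an uptake receptor of lipocalin 2 that is also a thyroid epithelial protein. It went down in 4OHT from 179 and 124 CPM to 65.3 and 83.2 (log2 fold change -1.02, SE 0.22, adjusted p = 0.0146) and measured 60.7 and 36.5 in PD+LY. The other receptor gene, *Slc22a17*, passed in no comparison. Of the transcription factors that act on the *Lcn2* gene, *Cebpb* rose in 4OHT (3.40 and 6.48 to 11.2 and 16.0 CPM, log2 fold change 1.44, SE 0.29, adjusted p = 0.0109). *Cebpd* fell with the inhibitors (9.34 and 13.2 to 3.36 and 3.36 CPM, log2 fold change -1.75, SE 0.23, adjusted p = 0.000389). *Stat3* rose by 0.48 on the log2 scale in 4OHT (adjusted p = 0.00822) and had a log2 fold change of -0.43 with the inhibitors (adjusted p = 0.00537). *Nfkbiz* passed in neither. Of the 7 genes on the list, 4OHT brought 3 up and 1 down, and the inhibitors brought 0 up and 3 down relative to 4OHT. By DESeq2 the 4OHT count was 3 up and 0 down, and at an unadjusted p under 0.05 edgeR had 1 up with the inhibitors. Without 4OHT replicate 2 none of the 4 calls in 4OHT was left.

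The 250 bases before the transcription start of 3 of the marker genes are shown because these are the pair with the deepest fall and the receptor whose window holds the letters bound by AP-1, the best-known transcription factor downstream of ERK. They are RefSeq promoter windows on GRCm38.p6, at chr14:47373610-47373859 (plus strand), chr2:32387740-32387989 (minus strand) and chr6:17463707-17463956 (plus strand). The starts that RefSeq gives lie inside the GENCODE gene spans printed here, so the windows of *Lgals3* and *Lcn2* lie wholly, and that of *Met* partly, within those spans. Capitals mark a match to the AP-1 letters TGANTCA, the ETS letters CCGGAAG, the cAMP response element TGACGTCA or the C/EBP letters TTNNGNAA, searched on both strands.
Lgals3: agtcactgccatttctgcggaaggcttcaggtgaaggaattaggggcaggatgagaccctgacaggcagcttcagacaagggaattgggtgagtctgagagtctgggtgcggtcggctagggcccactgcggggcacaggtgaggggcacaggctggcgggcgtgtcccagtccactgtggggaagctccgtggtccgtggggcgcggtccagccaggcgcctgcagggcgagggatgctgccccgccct
Lcn2: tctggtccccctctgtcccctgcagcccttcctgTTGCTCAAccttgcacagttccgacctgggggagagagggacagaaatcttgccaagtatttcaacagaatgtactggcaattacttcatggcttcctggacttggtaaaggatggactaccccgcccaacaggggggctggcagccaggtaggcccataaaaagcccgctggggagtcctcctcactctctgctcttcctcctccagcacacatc
Met: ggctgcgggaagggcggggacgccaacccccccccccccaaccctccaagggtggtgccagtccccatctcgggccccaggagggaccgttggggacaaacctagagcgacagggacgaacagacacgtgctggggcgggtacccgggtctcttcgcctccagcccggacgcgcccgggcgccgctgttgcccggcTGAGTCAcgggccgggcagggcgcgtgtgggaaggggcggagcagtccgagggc
The *Met* window held 1 AP-1 match, TGAGTCA, which starts 54 bases before the start site and has a counterpart in 6.75% of all 32851 promoter windows of that length. The *Lcn2* window held 1 C/EBP match, starting 216 bases before the start site (36.8% of all windows hold at least 1). C/EBP letters also occurred in a window of *Cited1*, starting 229 and 82 bases before the start site. The *Pros1* window held them too, starting at 223 bases. None of the 4 motifs was found in the *Lgals3* window, and no window of the 7 genes held the ETS (6.91% of all windows) or cAMP response element (1.55%) letters. A match of letters describes the sequence and says nothing of binding in these organoids.

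**Figure D2:**
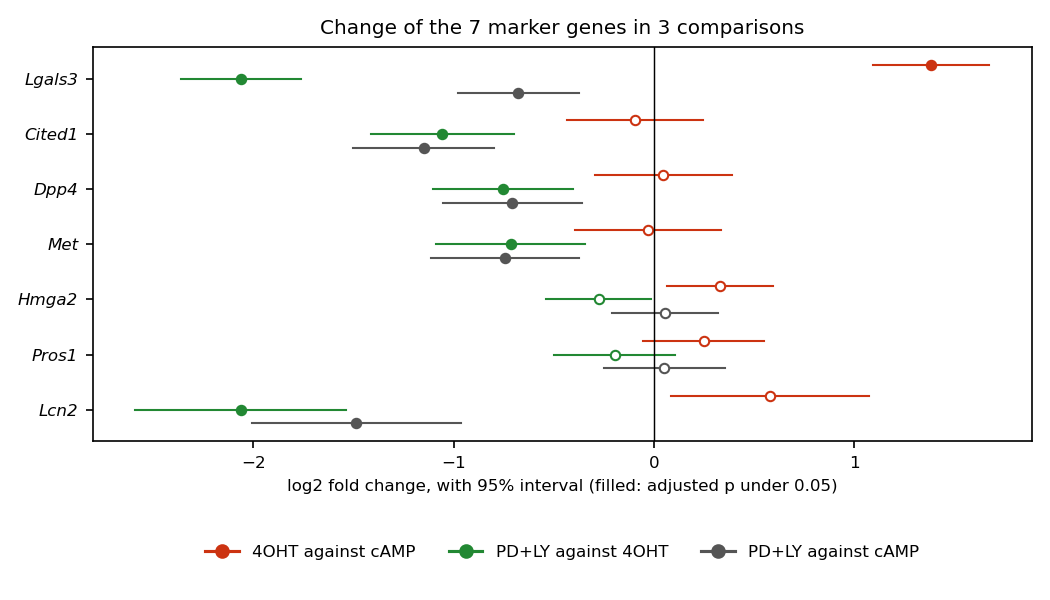
Log2 fold change (horizontal axis) of the 7 marker genes in 3 comparisons, with 95% intervals from the edgeR fit and filled points where the adjusted p was under 0.05. Lgals3 alone has a filled point right of 0, at 1.38 in 4OHT against cAMP, and the filled points of the comparisons with PD+LY all lie left of 0, from -0.68 to -2.06.

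*Cited1*, *Dpp4* and *Met* had one course in common, with libraries that overlapped between cAMP and 4OHT and were lower in PD+LY. *Cited1* (chrX:102247381-102252181, minus strand) measured 17.5 and 21.2 CPM in cAMP, 17.5 and 18.9 in 4OHT and 8.91 and 8.61 in PD+LY. The cAMP and 4OHT libraries overlapped (log2 fold change -0.09, SE 0.16, 95% interval -0.43 to 0.25, adjusted p = 0.767), so a rise beyond 0.25 on the log2 scale lies outside the interval. The fall with the inhibitors was 2.08-fold (log2 fold change -1.06, SE 0.16, adjusted p = 0.000902), and it was 2.22-fold against cAMP (-1.15, adjusted p = 0.000342). Both PD+LY libraries were lower than the other 4. *Cited2*, a relative that restrains hypoxia-driven transcription by competing for the same co-activators, did otherwise: it fell in 4OHT (69.5 and 79.8 to 50.9 and 56.1 CPM, log2 fold change -0.48, adjusted p = 0.0361). The co-activator gene *Crebbp* rose with the inhibitors (0.41, adjusted p = 0.0269), and *Ep300* and *Cited4* passed in no comparison.

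*Dpp4* (chr2:62330073-62412231, minus strand) measured 29.9 and 24.2 CPM in cAMP, 30.5 and 25.4 in 4OHT and 15.4 and 17.7 in PD+LY. Its cAMP and 4OHT libraries overlapped (log2 fold change 0.05, SE 0.16, 95% interval -0.29 to 0.39, adjusted p = 0.886). With the inhibitors it fell 1.69-fold (log2 fold change -0.75, SE 0.16, adjusted p = 0.00593), and against cAMP 1.63-fold (-0.71, adjusted p = 0.0069). The first call was lost without 4OHT replicate 1 (adjusted p = 0.0772) and the second without cAMP replicate 1 (adjusted p = 0.0668). The counting did not use strand, and 232 of the 6319 exonic bases of *Dpp4* overlap *Gm13561* on the other strand. Relatives of the peptidase went both ways. *Dpp6*, which lacks peptidase activity and serves potassium channels, rose with the inhibitors from 4.14 and 5.16 CPM to 12.9 and 11.3 (log2 fold change 1.37, SE 0.21, adjusted p = 0.000793). The prolyl peptidase gene *Prep* rose as well, from 86.4 and 80.0 to 120 and 140 CPM (0.65, adjusted p = 0.00127), and *Dpp7* fell, as *Dpp4* did (-0.43, adjusted p = 0.0337). *Ada*, whose product binds Dpp4 at the cell surface, passed in no comparison, nor did *Fap*, *Dpp8* or *Dpp9*. No gene of this list of 8, of which 7 were tested, was called in 4OHT by edgeR or DESeq2, and 4 had an unadjusted p under 0.05 by edgeR, 2 higher and 2 lower.

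*Met* (chr6:17463800-17573980, plus strand) measured 17.9 and 17.3 CPM in cAMP, 16.5 and 17.9 in 4OHT and 11.9 and 9.09 in PD+LY. The change in 4OHT was -0.03 on the log2 scale (SE 0.17, 95% interval -0.39 to 0.33, adjusted p = 0.938), and the fall with the inhibitors was 1.64-fold (log2 fold change -0.71, SE 0.17, adjusted p = 0.0111). This call did not stand without 4OHT replicate 1 (adjusted p = 0.0507) or 4OHT replicate 2 (adjusted p = 0.109). The fall against cAMP was 1.67-fold (-0.74, adjusted p = 0.00742) and stood in all 12 alternatives. The ligand gene *Hgf* was scarce, at 1.48 to 3.06 CPM over the 6 libraries, and passed in no comparison.

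Genes that act around the receptor were called as well. *Hpn*, encoding hepsin, a protease that cuts pro-HGF into its active form, measured 23.8 and 28.8 CPM in cAMP, 24.3 and 28.2 in 4OHT and 6.77 and 8.27 in PD+LY. Its cAMP and 4OHT libraries overlapped (log2 fold change -0.01), and it fell with the inhibitors (-1.80, SE 0.17, adjusted p = 4.02e-05). *St14*, encoding the related activator matriptase, rose in 4OHT (0.41, adjusted p = 0.027), and the genes of the protease inhibitors *Spint1* (-0.37, adjusted p = 0.0367) and *Spint2* (-0.44, adjusted p = 0.0108) fell with PD+LY. *Cd44*, whose product acts as a co-receptor of Met, went from 27.3 and 30.8 CPM in 4OHT to 10.9 and 8.22 (log2 fold change -1.60, SE 0.17, adjusted p = 9.19e-05). *Plxnb1*, a semaphorin receptor that pairs with Met, fell at both steps: 50.5 and 56.3 CPM in cAMP, 25.6 and 31.2 in 4OHT and 20.6 and 17.8 in PD+LY (-0.91, adjusted p = 0.00266, then -0.56, adjusted p = 0.0157). The adaptor gene *Grb2* rose with the inhibitors (0.57, adjusted p = 0.0011) and *Gab1* passed in no comparison. Of the 13 genes of this list, 4OHT brought 1 up and 1 down, and the inhibitors brought 1 up and 5 down relative to 4OHT.

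Epithelia of several kinds express these 3 genes, so cell type markers were read beside them. Of 12 epithelial markers, 4OHT brought 5 down and 1 up (background 4.35% and 4.04%), where *Cited1*, *Dpp4* and *Met* were not called. The inhibitors brought 8 down and 1 up relative to 4OHT (background 12.1% and 10.7%). The epithelial sums were 1357 and 1467 CPM in cAMP, 1041 and 1178 in 4OHT and 949.8 and 1024 in PD+LY. Of 9 tested markers of lung epithelium, another organ that uses *Nkx2-1*, 5 fell and 0 rose with the inhibitors relative to 4OHT (background 12.1% and 10.7%). That 0 was also 0 at an unadjusted p under 0.05 and by DESeq2. The lung sums were 349 and 382 CPM in 4OHT and 137 and 109 in PD+LY. The 12 mesenchymal markers summed to 1482 and 1665 CPM in cAMP, 2643 and 2779 in 4OHT and 5171 and 4402 in PD+LY, most of it from *Col1a1*, *Col1a2* and *Col3a1*. The mesenchymal markers did not move as one with the inhibitors: 5 rose, those 3 collagen genes among them, and 4 fell relative to 4OHT, among them *Vim* (log2 fold change -0.88, adjusted p = 0.000214) and *Pdgfrb* (-1.26, adjusted p = 0.000281). The part of a shift in cell types in the fall of *Cited1*, *Dpp4* and *Met* was not tested.

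*Hmga2* and *Pros1* passed the test in no comparison. *Hmga2* (chr10:120361275-120476469, minus strand) measured 42.1 and 40.6 CPM in cAMP, 55.3 and 48.7 in 4OHT and 45.4 and 40.6 in PD+LY. Both 4OHT libraries were above the other 4. The log2 fold change was 0.33 in 4OHT (SE 0.12, unadjusted p = 0.0182, adjusted p = 0.118 over all genes by edgeR) and -0.27 with the inhibitors (SE 0.12, adjusted p = 0.12). The first passed at adjusted p = 0.0474 when the fit held the cAMP and 4OHT libraries alone, and at 0.0466 with a term for the replicate number. The study's own score of ERK activity includes *Hmga2*. Of its 6772 exonic bases, 140 overlap *1700006J14Rik* on the other strand. *Pros1* (chr16:62854307-62929346, plus strand) measured 44.9 and 42.4 CPM in cAMP, 54.5 and 49.1 in 4OHT and 51.2 and 39.2 in PD+LY, with the 2 PD+LY libraries on either side of the cAMP pair. Its log2 fold change was 0.25 in 4OHT (SE 0.14, 95% interval -0.06 to 0.55, adjusted p = 0.307) and -0.20 with the inhibitors (SE 0.14, adjusted p = 0.331).

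Counting both, 4 of 7 marker genes (*Lgals3*, *Hmga2*, *Pros1* and *Lcn2*) had both 4OHT libraries above both cAMP libraries, beside 29.1% of all tested genes. In PD+LY against 4OHT, 6 of 7 had both libraries lower (31.2% of all genes), *Pros1* being the exception, and against cAMP 5 of 7 did (31.2%).

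Genes known to control *Hmga2* in embryonic cells were called where *Hmga2* was not. Lin28 proteins block the processing of let-7 microRNAs, and let-7 represses *Hmga2* through sites behind its coding sequence. *Lin28a* measured 342 and 375 CPM in cAMP, 158 and 171 in 4OHT and 74.8 and 65.7 in PD+LY, falling at both steps (log2 fold change -1.12, SE 0.10, adjusted p = 8.95e-05, then -1.23, SE 0.10, adjusted p = 1.66e-05). *Lin28b* measured 14.8 and 12.7 CPM in cAMP, 3.00 and 3.95 in 4OHT and 2.39 and 1.26 in PD+LY (-1.97, SE 0.27, adjusted p = 0.00137, then -0.94, SE 0.31, adjusted p = 0.0504). Against cAMP the PD+LY libraries had 5.1-fold less *Lin28a* (log2 fold change -2.35), while *Hmga2* differed by 0.06 (SE 0.12, 95% interval -0.21 to 0.32, adjusted p = 0.77). *Dicer1*, which processes microRNA precursors, fell in 4OHT (-0.37, adjusted p = 0.0468), and *Igf2bp3*, an RNA-binding relative of the fetal programme, rose with the inhibitors (0.41, adjusted p = 0.0113). *Hmga1* was counted at near 1 CPM or under in all libraries (16 counts at most) and, with *Igf2bp1*, *Igf2bp2* and *Trim71*, passed in no comparison. Of the 2125 exonic bases of *Hmga1*, 124 overlap *AI413582* and *Gm49774* on the other strand. Whether reads of *Hmga1* were lost in mapping or counting was not tested. Pluripotent cells also express *Lin28a*. Of the 10 pluripotency markers 2 rose and 0 fell in 4OHT (0 also at an unadjusted p under 0.05 and by DESeq2), and 3 rose and 2 fell with the inhibitors.

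The let-7 sequences are printed because *Hmga2* is set apart from the other 6 marker genes by its sites for them. Mature microRNAs were not measured. Capitals mark the seed, bases 2 to 8, which is the same in all 9 members of the family listed in RefSeq (GRCm38.p6), of which 3 are shown.
mmu-let-7a-5p: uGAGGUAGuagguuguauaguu
mmu-let-7g-5p: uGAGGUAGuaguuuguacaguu
mmu-miR-98-5p: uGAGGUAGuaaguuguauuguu
In the longest annotated 3′ untranslated region of each gene (GENCODE M21), the complement of the seed occurred 4 times in the 3014 bases of *Hmga2*. It occurred 0 times in *Lgals3* (480 bases), *Cited1* (76), *Dpp4* (2545), *Met* (2157), *Pros1* (1153) and *Lcn2* (232). A shorter region has less room for a match. Of 21020 genes with such a region, 9.02% held at least 1 match and 0.152% held 3 or more. *Lin28b*, *Igf2bp1* and *Trim71* held 4 each and *Lin28a* held 2. The 4 stretches of *Hmga2*, with the match in capitals, are as follows, in order from the stop codon.
Hmga2 site 1: ttcaatttCTACCTCagc
Hmga2 site 2: cctcaataCTACCTCtga
Hmga2 site 3: gcaaggaaCTACCTCcac
Hmga2 site 4: acacactaCTACCTCtta

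**Figure D3:**
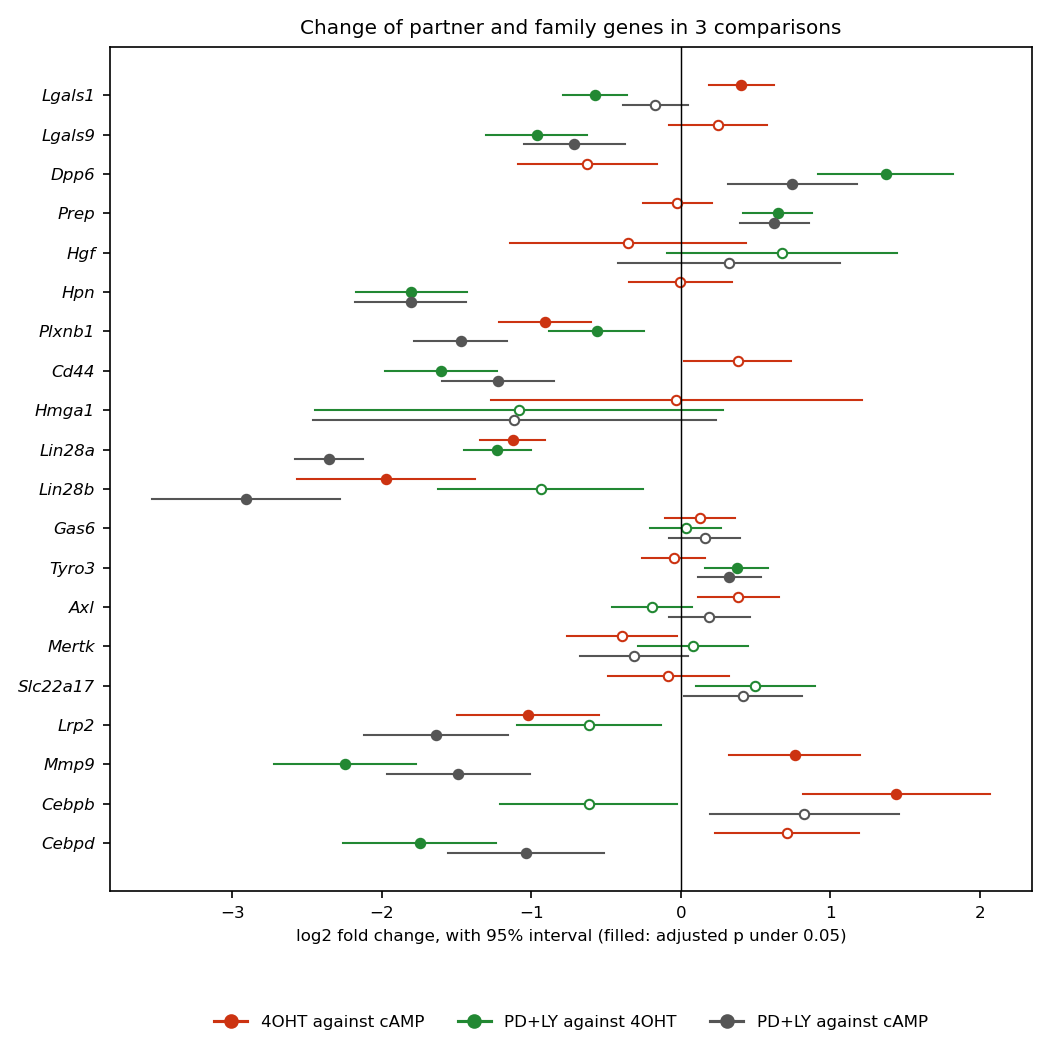
Log2 fold change (horizontal axis) with 95% intervals of 20 relatives, ligands, receptors and regulators of the marker genes in 3 comparisons, filled where the adjusted p was under 0.05. Lin28a and Plxnb1 are lower at both steps, whereas Mmp9 lies at 0.76 in 4OHT against cAMP and at -2.25 in PD+LY against 4OHT.

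For protein S, the receptors and the related ligand gave few calls. *Gas6*, the other TAM ligand, measured 52.9 to 63.9 CPM over the 6 libraries and passed in no comparison. *Tyro3* rose with the inhibitors from 173 and 189 CPM to 223 and 246 (log2 fold change 0.37, SE 0.10, adjusted p = 0.016). *Axl* measured 34.0 and 32.8 CPM in cAMP, 42.5 and 44.8 in 4OHT and 41.1 and 35.2 in PD+LY (0.38 in 4OHT, adjusted p = 0.08), and *Mertk* 13.5 and 13.1, 10.8 and 9.44, and 10.6 and 10.7 (-0.39 in 4OHT, adjusted p = 0.178). The anticoagulant partners *Procr* and *Thbd* passed in no comparison, and *Proc* was removed by the filter. In the list of 7, of which 6 were tested, 4OHT gave 0 calls by edgeR and by DESeq2 (1 gene higher and 1 lower at an unadjusted p under 0.05 by edgeR), and the inhibitors gave 1 relative to 4OHT.

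Levels of different genes were compared per kilobase of exon. In cAMP *Lcn2* had the highest mean at 20.0 ± 8.62 CPM per kb (SD, n = 2), followed by *Lgals3* at 11.99 ± 0.0398, *Cited1* at 11.1 ± 1.49 and *Pros1* at 10.7 ± 0.442. *Lcn2* did not differ from *Lgals3* or *Cited1* beyond the spread, nor did *Cited1* from *Lgals3* or *Pros1*. *Hmga2* stood at 6.10 ± 0.155, *Dpp4* at 4.28 ± 0.645 and *Met* lowest at 2.29 ± 0.0517. In 4OHT *Lgals3* (31.3 ± 1.96) and *Lcn2* (29.7 ± 1.41) did not differ beyond their spread. In PD+LY *Pros1* was first at 11.1 ± 2.07, ahead of *Lgals3* (7.50 ± 0.946), *Lcn2* (7.11 ± 1.40) and *Hmga2* (6.35 ± 0.504), which overlapped. *Met* was lowest in all 3 groups.

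The likeness of a pair of courses was measured as the root mean square difference between their centred log2 CPM values over the 6 libraries. It is not scaled by how much a gene varied, so genes that vary little lie close together. The SD of log2 CPM was 0.176 for *Hmga2*, 0.178 for *Pros1*, 0.400 for *Met* and 0.401 for *Dpp4*. It was 0.571 for *Cited1*, 0.942 for *Lgals3* and 0.998 for *Lcn2*. Among the 21 pairs of marker genes, *Hmga2* and *Pros1* were closest at 0.0746, *Cited1* and *Met* and *Dpp4* and *Met* followed at 0.215, and *Lgals3* and *Lcn2* differed by 0.439. *Pros1* and *Lcn2* were farthest apart at 0.839. Among 12223 tested genes with at least 50 counts on average, the course of *Lgals3* was most like those of *Nupr1* (0.174), *Cib2* (0.18) and *Krt7* (0.223). *Nupr1*, a stress-induced chromatin protein, rose by 1.13 and then changed by -2.16 on the log2 scale, and *Krt7*, a keratin of simple epithelia, by 1.05 and then -1.57. The nearest to *Lcn2* were *Mmp9* (0.189), *Col15a1* (0.201) and *Stc1* (0.241). *Cited1* was followed most closely by *Selenbp1*, *Psrc1* and *Trp53i11* (0.0472 to 0.0773), *Dpp4* by *Rftn1*, *Casz1* and *Agtpbp1* (0.0677 to 0.1), and *Met* by *Insig1*, *Ece1* and *Slco2a1* (0.0557 to 0.0611). For *Hmga2* they were *Ech1*, *Tmem129* and *Znrd1* (0.0429 to 0.0495), and for *Pros1* *Arl6ip5*, *Ghitm* and *Hddc3* (0.04 to 0.0485). These are descriptions over 6 libraries of 3 groups.

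Other genes known to be higher in human papillary carcinoma were then counted, from a list of 40 of which 39 were tested. In 4OHT 9 rose and 2 fell (background 4.04% and 4.35%), with a median log2 fold change of 0.23. In PD+LY against 4OHT 2 rose and 17 fell (background 10.7% and 12.1%, median -0.49). Against cAMP 2 rose and 10 fell (background 12.1% and 13.7%, median -0.23). The largest rise in 4OHT was that of *Aldh1a3*, a retinaldehyde dehydrogenase, from 2.33 and 3.22 CPM to 19.7 and 19.1, and back to 3.31 and 3.65 in PD+LY (log2 fold change 2.79, SE 0.22, adjusted p = 5.26e-05, then -2.47, SE 0.21, adjusted p = 1.77e-05). The collagen receptor gene *Itga2* (2.22, then -3.21), the urokinase receptor gene *Plaur* (1.09, then -0.95), the protease inhibitor gene *Slpi* (1.05, then -3.21) and the osteopontin gene *Spp1* (1.04, then -0.50) passed the test both ways. *Slc34a2*, a phosphate transporter, and *Ccnd1*, encoding cyclin D1, were not called in 4OHT, where both libraries of each lay below both cAMP libraries, and fell with the inhibitors. *Slc34a2* measured 25.7 and 21.5 CPM in cAMP, 17.9 and 20.3 in 4OHT and 3.41 and 2.19 with the inhibitors (-2.77, adjusted p = 1.11e-05). *Ccnd1* measured 56.5 and 61.6, 54.3 and 50.6, and 18.4 and 14.8 (-1.66, adjusted p = 1.58e-05). *Egfr* (-1.43), *Chil1* (-1.29) and *Itga3* (-1.26) fell with the inhibitors as well. The list's count in 4OHT dropped from 11 called to between 4 and 6 without cAMP replicate 1, 4OHT replicate 1 or 4OHT replicate 2.

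A list of 25 genes known to be lower in papillary carcinoma, largely thyroid function genes, had 21 tested. In 4OHT 1 rose and 5 fell (background 4.04% and 4.35%, median -0.48). In PD+LY against 4OHT 8 rose and 1 fell (background 10.7% and 12.1%, median 0.32). Against cAMP 5 rose and 4 fell (background 12.1% and 13.7%, median 0.16). The TSH receptor gene *Tshr* (log2 fold change 2.08), the deiodinase gene *Dio1* (2.13) and the iodide transporter gene *Slc5a5* (1.30) rose with the inhibitors. *Crabp1*, a retinoic acid carrier, went the other way and fell at both steps (-0.72, then -1.95). Against cAMP these function genes did not act alike. *Slc5a5* was not called, whereas *Tshr* was higher in PD+LY, at a mean of 12.1 CPM beside 6.16 (log2 fold change 0.98). That call of *Tshr* stood in 10 of 12 alternatives. *Lgals3*, *Lcn2*, *Cited1*, *Dpp4* and *Met* were lower than in cAMP. The count in 4OHT dropped from 6 called to between 1 and 3 without either library of cAMP or 4OHT. Markers of thyroid follicular cells rose in PD+LY against 4OHT in 7 of 12 cases, and 0 fell (0 also at an unadjusted p under 0.05 and by DESeq2).

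The call of *Lgals3* in 4OHT stood without any 1 library, and most calls of list genes did not. The number called over all tested genes also fell in PD+LY against 4OHT without either 4OHT library. It fell in 4OHT against cAMP without any 1 cAMP or 4OHT library. Of 27 list genes called there, 7 kept their call without any 1 library (among them *Lin28a*, *Lin28b*, *Aldh1a3*, *Spp1*, *Timp1* and *Chil1*), and the other 20 lost it at least once, at adjusted p between 0.0502 and 0.376. Those of *Lgals1*, *Cited2*, *Dicer1*, *St14*, *Slpi* and *Slc5a5* were lost without any one of the cAMP and 4OHT libraries. Those of *Mmp9*, *Stat3*, *Itga2* and *Crabp1* were lost without cAMP replicate 2 or either 4OHT library, and that of *Lrp2* without cAMP replicate 1 or either 4OHT library. *Cebpb* was lost without cAMP replicate 1 or 4OHT replicate 2, *Plaur* without cAMP replicate 1 or 4OHT replicate 1, and *Plxnb1* without 4OHT replicate 1. Of 45 list genes called with the inhibitors relative to 4OHT, 28 kept their call throughout, among them *Hpn*, *Cd44*, *Mmp9*, *Cebpd*, *Dpp6* and *Prep*. The other 17 lost it at adjusted p between 0.0505 and 0.262, including *Crebbp*, *Dpp7*, *Igf2bp3*, *Tyro3* and *Spint1* without either 4OHT library, *Plxnb1*, *Spint2* and *Stat3* without 4OHT replicate 2 and *Plaur* without 4OHT replicate 1.

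**Figure D4:**
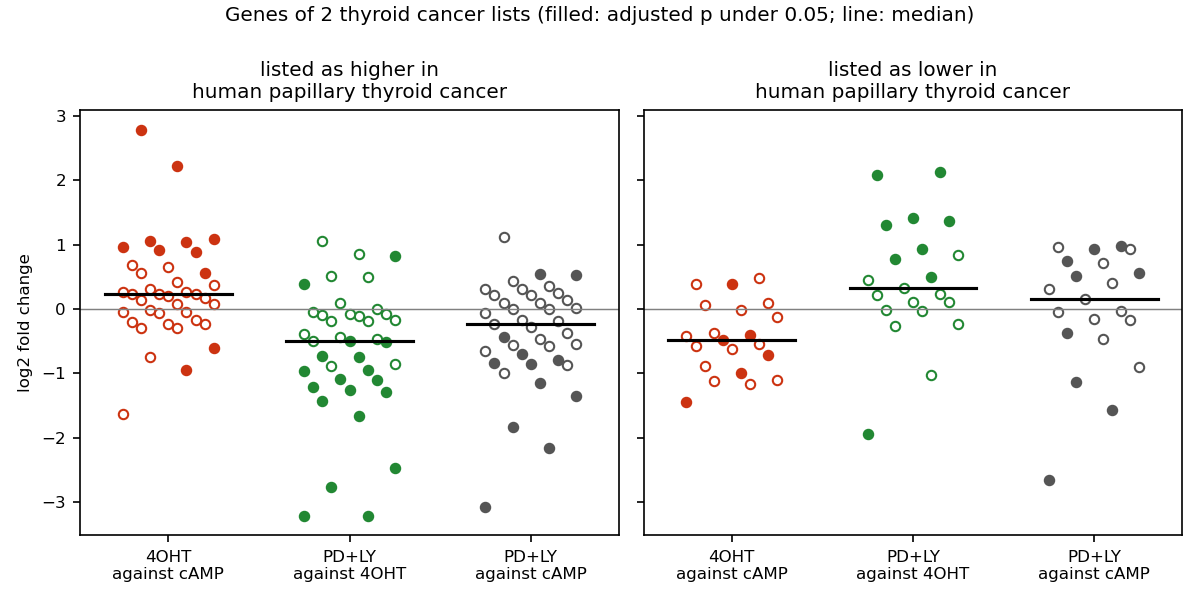
Log2 fold change (vertical axis) of 39 tested genes known to be higher (left) and 21 known to be lower (right) in human papillary thyroid carcinoma, by comparison, filled where the adjusted p was under 0.05 and with a line at the median. The median of the left list goes from 0.23 in 4OHT to -0.49 in PD+LY against 4OHT, and that of the right list from -0.48 to 0.32.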

How the data were processed

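The authors trimmed the reads (Trimmomatic), mapped them to the mm10 genome (HISAT2) and counted them by gene with HTSeq, ignoring strand although the mRNA kit keeps it, and deposited the raw counts of 25239 genes in 6 libraries as 1 table. Tool versions are not given in the sources used here. Nothing ties the 2 samples of a group to separate differentiations, so p-values measure only the spread between these samples, which may be technical.

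Genes were filtered with filterByExpr (minimum count 10, minimum total 15), scaled by TMM (factors 0.990 to 1.01) and tested with the quasi-likelihood test of edgeR 4.0.16 (R 4.3.3) in 1 fit of 3 groups with 3 contrasts, with Benjamini-Hochberg adjustment over 15256 genes. The SE is the log2 fold change divided by the root of F. CPM uses TMM library sizes. Gene positions and exon lengths are from GENCODE M21. The code was tested on simulated data. DESeq2 1.42.0 and 11 other alternatives were run, among them leaving out each library, which leaves a lone library assumed to vary like the others. An exact permutation test of 2 against 2 libraries cannot go below p = 0.333 and was not used.

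Genes named are the 7 marker genes, genes of the lists called at 2-fold or more (in the 2 cancer lists, the 8 that changed most among those with a mean of at least 50 counts), 9 partners (*Hgf*, *Gas6*, *Axl*, *Mertk*, *Tyro3*, *Slc22a17*, *Lin28a*, *Lin28b* and *Hmga1*) and the 3 genes nearest to each marker gene. A gene that the rule names is not reported here. Others, and all motifs, were chosen after their values were seen. The marker genes and lists were chosen with earlier results of these data known.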

Additional observations from a re-analysis of the deposited data

How the results depend on the processing

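Over 12 alternatives and 3 comparisons the 7 marker genes gave 252 values, of which 236 kept their direction and their side of the threshold, 6 passed it newly, 4 no longer did and 6 changed sign. Calls for marker genes in 4OHT against cAMP numbered 2 with no filter (*Lcn2* added) and 2 with only the groups compared (*Hmga2* added). Nothing in the sources pairs the replicate numbers. Deviations of same-numbered libraries correlated at 0.0718 (cAMP and 4OHT), 0.207 (cAMP and PD+LY) and 0.0586 (4OHT and PD+LY). With 2 libraries in a group the deviations mirror each other, so libraries of unlike number give the same values with the sign turned. These correlations therefore cannot decide whether the numbers are paired. A replicate block gave 3 calls in 4OHT (*Lgals3*, *Hmga2* and *Lcn2*), left the marker genes called in the other comparisons at 5 and 5, and raised all calls in 4OHT from 1280 to 2373. With no filter 11 genes of the lower-in-cancer list were called in 4OHT. The cause was not tested.

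Leaving out 1 library gave 1 to 2 marker genes called in 4OHT (also 1 to 2 with a 2-fold change), 3 to 6 in PD+LY against 4OHT, and 1 to 2 with a 2-fold change against cAMP. The lists together had 8 to 37 genes called in 4OHT and 29 to 49 in PD+LY against 4OHT. The higher-in-cancer list had 4 to 12 in 4OHT, and the lower-in-cancer list 1 to 9 there and 5 to 8 in PD+LY against cAMP. Values near 0 changed sign. In 4OHT these were *Cited1* (-0.22 to 0.059), *Dpp4* (-0.10 to 0.21), *Met* (-0.085 to 0.028), *Tyro3* (-0.11 to 0.017), *Slc22a17* (-0.33 to 0.23) and *Hmga1* (-0.17 to 0.15). With the inhibitors they were *Gas6* (-0.0060 to 0.069) and *Mertk* (-0.014 to 0.18), and relative to cAMP *Hmga2* (-0.026 to 0.14) and *Pros1* (-0.15 to 0.24). With 2 libraries in each group, changes as small as those of *Hmga2* and *Pros1* lie near the limit of what could be called.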
